A study of Mus musculus with 26 samples.

Results

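Limb and facial mesenchyme homeobox genes were examined in RNA-seq data from mouse embryonic fibroblasts (MEFs), heart and liver. The 9 genes, *Pitx1*, *Shox2*, *Msx1*, *Msx2*, *Alx1*, *Alx4*, *Prrx1*, *Prrx2* and *Barx1*, were picked by name out of 52454 gene symbols, with the levels in these 10 libraries already known, so the values below describe them and are not tests of why they were chosen. No threshold was set on their levels. All 9 are in the table, and no member was left out.

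The study asked which genomic regions depend on the de novo DNA methyltransferases DNMT3A and DNMT3B during embryonic development. RNA was sequenced in 1 library per condition. MEFs, heart and liver came from male C57BL6 embryos at E14.5, labelled *Dnmt3a* WT or *Dnmt3a* KO and bred from mice heterozygous for the B6;129S4-*Dnmt3a* tm1Enl allele. The MEFs were used at passage 1 and kept for 2 days in DMSO or in 10 µM GSK126, an inhibitor of the H3K27 methyltransferase EZH2. Heart and liver carry the same embryo numbers in the labels, 4 for WT and 25 for *Dnmt3a* KO. The 2i-MEFs were female and of mixed 129X1/SvJ and MSM/Ms background. They were derived from ES cells of 1 parental line, kept in 2i/LIF medium, in which *Dnmt3a* or *Dnmt3b* had been disrupted with CRISPR/Cas9. These ES cells were injected into ICR blastocysts, and the fibroblasts of the resulting E14.5 chimeras were freed of host cells by G418 selection and GFP sorting. WT 2i-MEFs were not analysed here, so *Dnmt3a* KO and *Dnmt3b* KO 2i-MEFs were compared with each other. Which parts of the embryo went into each fibroblast culture is not given in the sources used here.

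Homeobox genes encode transcription factors that give cells a position along the body and within an organ. PRRX1 and PRRX2 are broad mesenchymal factors of limb bud and face, PITX1 specifies hindlimb, SHOX2 acts in the proximal limb skeleton, the palate and the sinoatrial node, ALX1 and ALX4 act in the frontonasal region, MSX1 and MSX2 respond to BMP signals, and BARX1 acts in facial and stomach mesenchyme. Fibroblasts keep part of such a positional code in culture, so these genes are used to read the regional origin of a fibroblast culture.

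Estimated depth was between 9145522 mapped reads in *Dnmt3b* KO 2i-MEFs and 26154058 in WT liver, and 1 FPKM on a transcript of 2000 bases stood for 16.5 to 47.2 reads. FPKM (fragments per kilobase, relative to all mapped fragments) is scaled by transcript length, so levels of different genes can be compared. The summed defining markers separated the labelled tissues. The 12 fibroblast markers summed to at least 13181 FPKM in each fibroblast library and at most 4633 FPKM in heart and liver, where at least 11 of them still reached 1 FPKM. The 8 cardiomyocyte markers summed to at least 15010.1 FPKM in the hearts and at most 47.5 FPKM elsewhere, and the 6 hepatocyte markers to at least 14081 FPKM in the livers and at most 73.9 FPKM elsewhere. *Dnmt3a* itself went against the label in MEFs and heart. It was at 26.1 and 19.3 FPKM in WT MEFs with DMSO and GSK126, and at 85.7 and 84.5 FPKM in the MEFs labelled *Dnmt3a* KO. It was at 55.0 FPKM in WT heart and 125 FPKM in the heart labelled *Dnmt3a* KO, but at 53.5 and 12.7 FPKM in the corresponding livers and at 4.21 and 23.9 FPKM in *Dnmt3a* KO and *Dnmt3b* KO 2i-MEFs. The values cover the whole gene and leave unknown whether its deleted part was transcribed. The MEF and heart libraries are therefore named by their labels, and the 2 MEF libraries and the heart library labelled *Dnmt3a* KO were also left out where a comparison allowed it.

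*Shox2*, *Msx1* and *Barx1* were 3 of the 4 members, with *Prrx2*, that differed at least 2-fold in FPKM + 1 between the 2i-MEF libraries, and the 300 bases around their annotated start sites are shown because the study is about CpG methylation at developmental genes. The sequences are from RefSeq (build GRCm38.p6), run from 250 bases before to 50 bases after the start, are written 5′ to 3′ on the strand of the gene, and have every CpG in capitals. The *Shox2* window is chr3:66981722-66982021 on the minus strand, the *Msx1* window is chr5:37824536-37824835 on the minus strand and the *Barx1* window is chr13:48662786-48663085 on the plus strand.
Shox2: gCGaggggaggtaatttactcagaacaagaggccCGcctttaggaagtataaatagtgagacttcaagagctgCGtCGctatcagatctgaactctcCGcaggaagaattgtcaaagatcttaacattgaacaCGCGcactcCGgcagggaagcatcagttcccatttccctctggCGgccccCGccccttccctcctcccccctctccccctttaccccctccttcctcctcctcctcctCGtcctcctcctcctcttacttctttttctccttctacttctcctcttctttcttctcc
Msx1: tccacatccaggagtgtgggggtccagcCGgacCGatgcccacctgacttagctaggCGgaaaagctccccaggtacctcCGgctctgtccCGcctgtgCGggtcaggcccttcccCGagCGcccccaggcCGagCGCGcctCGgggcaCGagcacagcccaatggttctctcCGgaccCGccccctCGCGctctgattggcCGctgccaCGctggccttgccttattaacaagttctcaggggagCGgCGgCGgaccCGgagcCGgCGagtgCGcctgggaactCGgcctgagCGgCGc
Barx1: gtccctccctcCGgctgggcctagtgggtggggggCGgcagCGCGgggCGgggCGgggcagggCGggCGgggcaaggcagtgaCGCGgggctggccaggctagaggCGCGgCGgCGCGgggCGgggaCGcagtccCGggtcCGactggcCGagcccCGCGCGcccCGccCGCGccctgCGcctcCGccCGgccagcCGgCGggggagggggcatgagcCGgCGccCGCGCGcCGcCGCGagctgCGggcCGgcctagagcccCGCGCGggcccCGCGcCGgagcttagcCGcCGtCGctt
The windows hold 11 CpG sites for *Shox2*, 29 for *Msx1* and 50 for *Barx1*, against a median of 7 over 32851 promoter windows. This set, called all windows below, does not cover every chromosome. The *Barx1* count is above that of 99.1% of all windows, the *Msx1* count above 87.1% and the *Shox2* count above 58.6%. The letters TATAAA, searched on both strands, are present in the *Shox2* window and in 13.6% of all windows, and are absent from the *Msx1* and *Barx1* windows. The other windows found hold 28 CpG sites for *Prrx2*, 22 for *Msx2* and 6 for *Prrx1*, the last below the median. Windows were thus found for 6 of the 9 members, and the promoters of *Pitx1*, *Alx1* and *Alx4* were not analysed here.

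The summed level of the 9 genes was highest in the fibroblast libraries, where most of it was *Prrx1* and *Prrx2*. It was 405 and 390 FPKM in WT MEFs with DMSO and GSK126, 370 and 354 FPKM in the corresponding MEFs labelled *Dnmt3a* KO, and 400 and 240 FPKM in *Dnmt3a* KO and *Dnmt3b* KO 2i-MEFs. It was 56.8 and 53.3 FPKM in WT heart and heart labelled *Dnmt3a* KO, and 3.54 and 4.28 FPKM in the livers. Of the 9 genes, 9 reached 1 FPKM in both WT MEF libraries, 8 in both MEF libraries labelled *Dnmt3a* KO and in *Dnmt3a* KO 2i-MEFs, 5 in *Dnmt3b* KO 2i-MEFs and in each heart, and 1 in each liver. The lowest of the 6 fibroblast libraries lay above the highest of the 4 tissue libraries for 6 members, *Pitx1*, *Shox2*, *Alx1*, *Alx4*, *Prrx1* and *Prrx2*. The gap was 1.32-fold for *Shox2* and 1.41-fold for *Prrx2*, and 2 members had a gap of at least 2-fold in FPKM + 1. Any gap above the tissues was found for 6.05% of all genes and for 17.8% of genes with 1 FPKM in at least 1 library. No member lay below in this way, as did 5.33% of all genes and 15.4% of genes with 1 FPKM in at least 1 library. The levels of *Msx1*, *Msx2* and *Barx1* overlapped between fibroblasts and tissues. Without the MEF and heart libraries labelled *Dnmt3a* KO, 6 members again lay above, against 7.33% of all genes, and 0 below, against 7.02%.

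**Figure D1:**
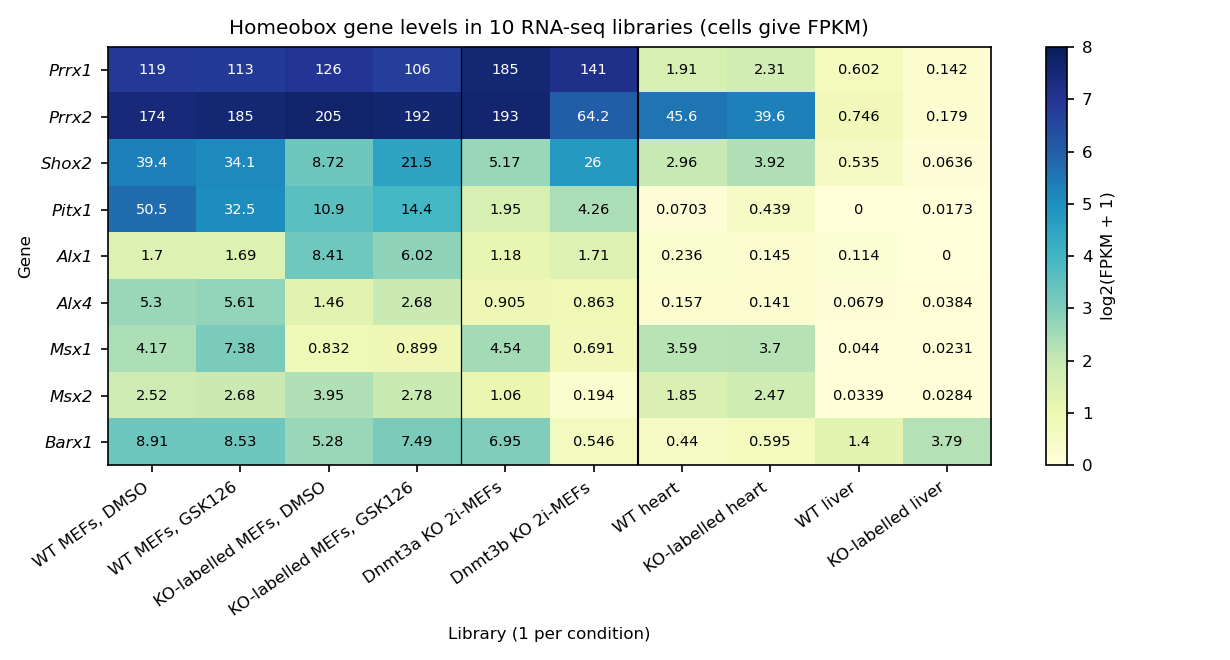
Levels of the 9 homeobox genes (rows) in the 10 RNA-seq libraries (columns, 1 library per condition), coloured by log2(FPKM + 1) with the FPKM value in each cell. *Prrx1* is above 100 FPKM in all 6 fibroblast libraries and at 2.31 FPKM or less in heart and liver, whereas *Msx1* is at 3.59 and 3.70 FPKM in the hearts.

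*Prrx1* (chr1:163245119-163313710, minus strand, mm10) was the steadiest member among the fibroblasts. It was at 119 and 113 FPKM in WT MEFs with DMSO and GSK126, at 126 and 106 FPKM in the MEFs labelled *Dnmt3a* KO, at 185 FPKM in *Dnmt3a* KO 2i-MEFs and at 141 FPKM in *Dnmt3b* KO 2i-MEFs. Heart held 1.91 and 2.31 FPKM (WT and labelled *Dnmt3a* KO) and liver 0.602 and 0.142 FPKM, so the lowest fibroblast level was 46.1 times the highest tissue level. Its highest and lowest fibroblast levels differed by 1.74-fold, the narrowest range of the 9 genes. *Prrx2* (chr2:30834972-30881251, plus strand), its close relative, was at 174, 185, 205 and 192 FPKM in WT MEFs with DMSO, WT MEFs with GSK126, and the MEFs labelled *Dnmt3a* KO with DMSO and GSK126. It was at 193 FPKM in *Dnmt3a* KO 2i-MEFs and at 64.2 FPKM in *Dnmt3b* KO 2i-MEFs. Unlike *Prrx1*, it was well expressed in heart, at 45.6 and 39.6 FPKM, and was the highest member there. The livers held 0.746 and 0.179 FPKM.

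*Pitx1* (chr13:55825051-55836192, minus strand), the hindlimb factor, spanned a 25.9-fold range among the fibroblasts. It was at 50.5 and 32.5 FPKM in WT MEFs with DMSO and GSK126, at 10.9 and 14.4 FPKM in the MEFs labelled *Dnmt3a* KO, at 1.95 FPKM in *Dnmt3a* KO 2i-MEFs and at 4.26 FPKM in *Dnmt3b* KO 2i-MEFs. Both WT MEF levels lay above both levels of the MEFs labelled *Dnmt3a* KO, and these lay above both 2i-MEF levels. *Pitx1* was at 0.0703 and 0.439 FPKM in the hearts, was listed at 0 in WT liver and stood at 0.0173 FPKM in the other liver. *Shox2* (chr3:66971727-66981771, minus strand) was at 39.4 and 34.1 FPKM in WT MEFs, at 8.72 and 21.5 FPKM in the MEFs labelled *Dnmt3a* KO, at 5.17 FPKM in *Dnmt3a* KO 2i-MEFs and at 26.0 FPKM in *Dnmt3b* KO 2i-MEFs. Its 3 highest libraries were thus the WT MEFs and *Dnmt3b* KO 2i-MEFs. The hearts held 2.96 and 3.92 FPKM and the livers 0.535 and 0.0636 FPKM.

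*Alx1* (chr10:102998707-103030215, minus strand) and *Alx4* (chr2:93642384-93681339, plus strand), aristaless-like factors of the developing face, did not follow each other. *Alx1* was at 1.70 and 1.69 FPKM in WT MEFs, at 8.41 and 6.02 FPKM in the MEFs labelled *Dnmt3a* KO, and at 1.18 and 1.71 FPKM in *Dnmt3a* KO and *Dnmt3b* KO 2i-MEFs. The 2 MEF libraries labelled *Dnmt3a* KO stood above the other 4 fibroblast libraries, which lay close together. *Alx4* was at 5.30 and 5.61 FPKM in WT MEFs, at 1.46 and 2.68 FPKM in the MEFs labelled *Dnmt3a* KO, and at 0.905 and 0.863 FPKM in the 2i-MEFs. Its order among the 3 kinds of fibroblast was that of *Pitx1*. Heart and liver held at most 0.236 FPKM of *Alx1* and at most 0.157 FPKM of *Alx4*.

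*Msx1* (chr5:37820485-37824583, minus strand) and *Msx2* (chr13:53466884-53473074, minus strand) encode repressors that act downstream of BMP in limb and skull. *Msx1* was at 4.17 and 7.38 FPKM in WT MEFs, at 0.832 and 0.899 FPKM in the MEFs labelled *Dnmt3a* KO, at 4.54 FPKM in *Dnmt3a* KO 2i-MEFs and at 0.691 FPKM in *Dnmt3b* KO 2i-MEFs. *Msx2* was at 2.52 and 2.68 FPKM in WT MEFs, at 3.95 and 2.78 FPKM in the MEFs labelled *Dnmt3a* KO, and at 1.06 and 0.194 FPKM in *Dnmt3a* KO and *Dnmt3b* KO 2i-MEFs. The pair therefore differed among the MEFs from embryos, where *Msx1* separated the genotype labels and the *Msx2* levels stayed within 2.52 to 3.95 FPKM. Heart held both genes at levels within the range of the fibroblasts, with *Msx1* at 3.59 and 3.70 FPKM and *Msx2* at 1.85 and 2.47 FPKM, while neither passed 0.0440 FPKM in liver. *Barx1* (chr13:48662998-48666507, plus strand) was at 8.91 and 8.53 FPKM in WT MEFs, at 5.28 and 7.49 FPKM in the MEFs labelled *Dnmt3a* KO, at 6.95 FPKM in *Dnmt3a* KO 2i-MEFs and at 0.546 FPKM in *Dnmt3b* KO 2i-MEFs. *Dnmt3b* KO 2i-MEFs stood apart from the other 5 fibroblast libraries. *Barx1* was the only member with more than 1 FPKM in liver, at 1.40 and 3.79 FPKM, and was at 0.440 and 0.595 FPKM in the hearts.

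Levels were then compared between libraries as the log2 ratio of FPKM + 1, and a difference of at least 2-fold on this scale (a log2 ratio of at least 1 or at most -1) was counted. In brackets after a ratio stands its 95% interval (exact Clopper-Pearson, from the estimated reads on the shortest transcript), which covers counting error only. With 1 library per condition, the ratios have no replicates behind them and p-values were not computed. In bulk RNA, fewer cells of a type and less RNA per cell cannot be told apart.

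Between the MEFs labelled *Dnmt3a* KO and WT MEFs with DMSO, 4 of the 9 members were at least 2-fold lower and 1 was at least 2-fold higher. Of all genes, 0.528% were lower and 1.11% higher by this rule, and of genes with 1 FPKM in either library, 2.02% and 4.24%. *Pitx1* differed by a log2 ratio of -2.12 (-2.39 to -1.84), which is a 4.65-fold lower FPKM. The ratio was -2.05 (-2.50 to -1.62) for *Shox2*, -1.50 (-1.78 to -1.18) for *Msx1* and -1.36 (-1.52 to -1.19) for *Alx4*. *Alx1* went the other way, with a ratio of 1.80 (1.47 to 2.12). The remaining members were under 2-fold, with ratios of -0.66 for *Barx1*, 0.49 for *Msx2*, 0.24 for *Prrx2* and 0.08 for *Prrx1*. The median ratio of the 9 genes was -0.66, against 0 over all genes.

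With GSK126 in both cultures, 2 members were at least 2-fold lower and 1 higher, against 0.764% and 0.745% of all genes and 2.95% and 2.88% of genes with 1 FPKM in either library. *Msx1* had a ratio of -2.14 (-2.41 to -1.84), *Pitx1* of -1.13 (-1.41 to -0.84) and *Alx1* of 1.38 (1.04 to 1.71). *Alx4* at -0.84 (-1.01 to -0.68) and *Shox2* at -0.64 (-0.998 to -0.27) were under 2-fold on this scale, although the FPKM of *Alx4* was 2.09-fold lower, and with a pseudocount of 0.1 there were 3 lower members. The same 3 genes thus passed the rule with both treatments, *Pitx1* and *Msx1* lower and *Alx1* higher. Among all genes, 0.177% were lower and 0.259% higher with both treatments, and among genes with 1 FPKM in at least 1 MEF library, 0.654% and 0.956%. The labels do not say whether the DMSO and GSK126 cultures of one genotype came from the same embryo.

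**Figure D2:**
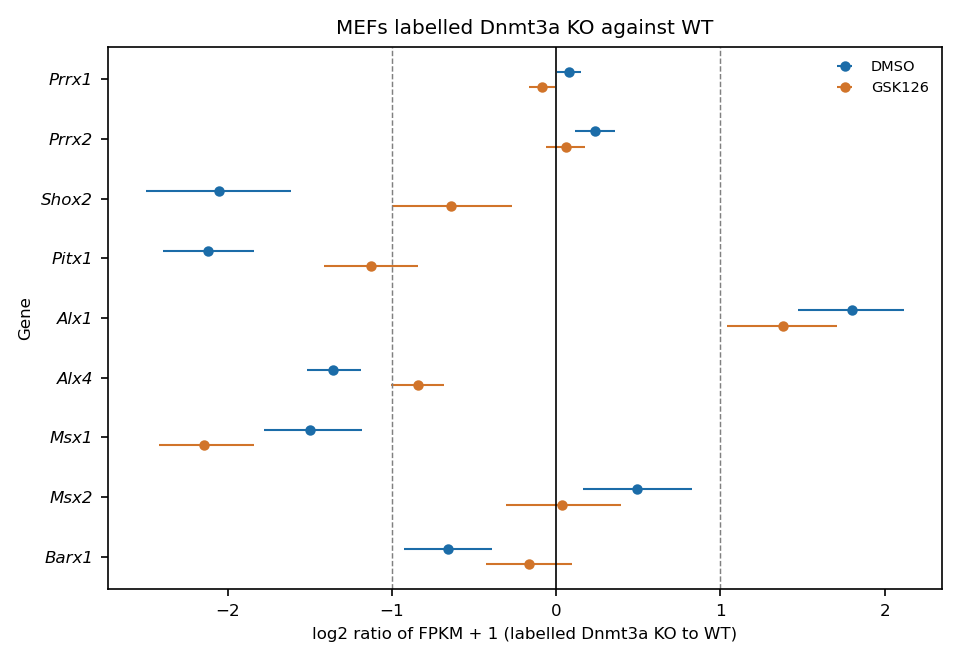
Log2 ratio of FPKM + 1 between MEFs labelled *Dnmt3a* KO and WT MEFs (x axis) for the 9 genes (y axis) with DMSO (blue) and GSK126 (orange); points are the ratio of 1 library to 1 library, bars the 95% counting interval, and dashed lines mark 2-fold. *Pitx1* and *Msx1* lie past the lower line and *Alx1* past the upper line with both treatments, while *Prrx1* lies near 0.

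The other limb genes of these cultures were read from a list of 26 limb patterning genes. None of the 26 was at least 2-fold higher in the MEFs labelled *Dnmt3a* KO, whereas 6 were lower with DMSO and 5 with GSK126. The 5 that were lower with both treatments were *Tbx4*, *Isl1*, *Hoxa13*, *Hoxd11* and *Hoxd13*. *Tbx4*, a T-box gene of the hindlimb, was at 15.5 and 12.8 FPKM in WT MEFs with DMSO and GSK126 and at 3.75 and 3.35 FPKM in the MEFs labelled *Dnmt3a* KO. *Isl1*, which acts at the start of hindlimb outgrowth, was at 5.78 and 5.70 FPKM against 1.16 and 1.19 FPKM. The distal limb gene *Hoxd13* was at 3.90 and 4.12 FPKM against 0.222 and 0.166 FPKM, and *Hoxa13* at 2.46 and 2.83 FPKM against 0.0356 and 0.251 FPKM. *Tbx5*, the T-box gene of the forelimb, was at 4.10 and 4.34 FPKM in WT MEFs and at 4.06 and 3.64 FPKM in the MEFs labelled *Dnmt3a* KO. *Hoxc10* passed the rule with DMSO only, at 27.4 and 20.5 FPKM against 12.5 and 12.5 FPKM. Other posterior *Hox* genes of the list stayed under 2-fold with both treatments, with ratios of -0.70 and -0.78 for *Hoxa11* and -0.77 and -0.31 for *Hoxc11* (DMSO and GSK126). *Hoxd12* had ratios of -0.84 and -0.50, at 0.786 and 0.531 FPKM in WT MEFs against 0 and 0.0810 FPKM. Being under 1 FPKM in WT MEFs, it could not become 2-fold lower on this scale even at a level of 0. These genes were singled out of the list after their values were seen, and hindlimb, distal and forelimb genes were not compared as groups. The median ratio of the 26 genes was -0.35 with DMSO and -0.42 with GSK126.

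**Figure D3:**
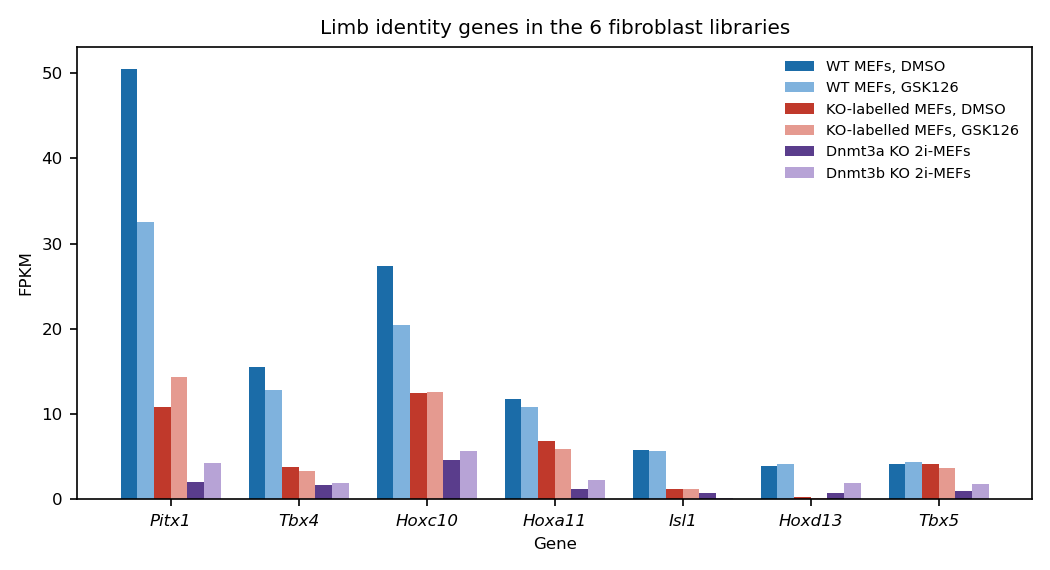
Levels in FPKM (y axis) of *Pitx1* and 6 limb patterning genes (x axis) in the 6 fibroblast libraries, each bar 1 library. *Tbx4* goes from 15.5 FPKM in WT MEFs with DMSO to 3.75 FPKM in MEFs labelled *Dnmt3a* KO with DMSO, whereas *Tbx5* is at 4.10 and 4.06 FPKM.

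Of 22 craniofacial genes, 4 were at least 2-fold lower and 1 higher in the MEFs labelled *Dnmt3a* KO with DMSO, and 2 were lower and 1 higher with GSK126, with medians of 0.01 and 0.02. *Osr2*, a palate and limb gene, was lower with both treatments, at 30.9 and 29.9 FPKM in WT MEFs against 10.3 and 10.3 FPKM. *Foxd1* was higher with both, at 2.39 and 1.85 FPKM against 6.31 and 5.90 FPKM. Of 14 BMP ligands, transducers and responders, 2 were higher with DMSO, the inhibitory *Smad7* (11.0 against 23.7 FPKM) and *Smad6* (11.5 against 24.1 FPKM), and none passed with GSK126. The receptor *Bmpr1b* was under 2-fold on this scale, at 1.85 and 2.25 FPKM in WT MEFs against 0.676 and 0.829 FPKM. Of 8 skeletogenic genes, 2 were higher with DMSO, *Ibsp*, a bone matrix gene (0.298 against 6.14 FPKM), and *Alpl*, a phosphatase of mineralising cells (0.814 against 3.31 FPKM). With GSK126, *Ibsp* was at 1.16 against 0.658 FPKM and *Alpl* at 0.957 against 1.06 FPKM, and the gene that passed was *Sox5*, a cartilage factor (4.12 against 10.8 FPKM).

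Summed markers of some other cell types differed between the genotype labels, in some lists through few of the genes. The summed level of 5 cartilage markers was 69.7 and 88.1 FPKM in WT MEFs with DMSO and GSK126 and 274 and 280 FPKM in the MEFs labelled *Dnmt3a* KO, with *Matn1* at 0 in both WT libraries. The sum of 5 mesothelial markers was 53.1 and 63.4 FPKM against 128 and 318 FPKM. The 6 epithelial markers summed to 6.88 and 9.10 FPKM against 17.7 and 37.8 FPKM. Of these, 2 were at least 2-fold higher with both treatments, *Krt8* and *Krt14*, and 0 were lower. *Cdh1* went the other way under 2-fold, at 0.755 and 0.701 FPKM against 0.212 and 0.321 FPKM. The 5 macrophage markers summed to 501 and 502 FPKM against 326 and 352 FPKM, with 0 at least 2-fold higher or lower with either treatment. The 9 skeletal muscle markers summed to 23.2 and 32.4 FPKM against 64.2 and 39.5 FPKM, with 3 at least 2-fold higher and 0 lower with DMSO, 0 higher and 1 lower with GSK126, and a median ratio of 0 with both. Of the 9 foregut and stomach markers, 2 were higher with both treatments, *Nkx3-2* (0.806 and 0.715 FPKM against 4.11 and 4.11 FPKM) and *Foxf1* (2.56 and 2.78 FPKM against 6.70 and 7.58 FPKM), and 0 and 1 were lower with DMSO and GSK126. Of the 7 sinoatrial node markers, 2 were lower with both, *Isl1* and *Tbx18*. The sum of the fibroblast markers was 19789.7 and 16077 FPKM against 16764 and 13181 FPKM. The part of these cells in the differences of the homeobox genes was not tested, and culture, embryo and genotype cannot be told apart with 1 library each.

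Few of these genes differed by the 2-fold rule between GSK126 and DMSO. In WT MEFs, 0 of the 9 were at least 2-fold higher or lower, against 0.559% and 0.408% of all genes and 2.17% and 1.59% of genes with 1 FPKM in either library. *Msx1* had the largest ratio, 0.70 (0.43 to 0.96), from 4.17 to 7.38 FPKM, and *Pitx1* the lowest, -0.62 (-0.84 to -0.40), from 50.5 to 32.5 FPKM. In the MEFs labelled *Dnmt3a* KO, 1 member was at least 2-fold higher and 0 were lower, against 0.522% and 0.846% of all genes and 2.01% and 3.25% of genes with 1 FPKM in either library. This was *Shox2*, which went from 8.72 to 21.5 FPKM (ratio 1.21, 0.75 to 1.69) and in WT MEFs from 39.4 to 34.1 FPKM (ratio -0.20, -0.54 to 0.12). *Alx4* had a ratio of 0.58 (0.40 to 0.75) in the MEFs labelled *Dnmt3a* KO. Between the same 2 libraries, 3 of 5 mesothelial markers and 1 of 6 epithelial markers were at least 2-fold higher with GSK126, and 2 of 12 fibroblast markers and 2 of 8 skeletogenic genes, *Ibsp* and *Alpl*, were lower. Their part was not tested. Whether the response to GSK126 differed between the genotype labels was not tested, since each ratio rests on 2 libraries. The median ratio of the members was 0.00 in WT MEFs and 0.05 in the MEFs labelled *Dnmt3a* KO.

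In 2i-MEFs, 3 members were at least 2-fold higher in the *Dnmt3a* KO library than in the *Dnmt3b* KO library and 1 was lower. Of all genes, 1.43% were higher and 0.906% lower, and of genes with 1 FPKM in either library, 5.52% and 3.49%. *Barx1* had the largest ratio, 2.36 (1.79 to 2.77), which rests on about 91 reads against 6. *Msx1* had a ratio of 1.71 (1.20 to 2.09), and *Prrx2* of 1.58 (1.33 to 1.82) at 193 against 64.2 FPKM. *Shox2* went the other way, with a ratio of -2.13 (-3.01 to -1.34) at 5.17 against 26.0 FPKM. *Msx2* was under 2-fold on this scale, at 1.06 against 0.194 FPKM with a ratio of 0.78 (0.25 to 1.10). The intervals of *Pitx1* (-0.83, -1.66 to 0.07), *Alx1* (-0.31, -0.88 to 0.25) and *Alx4* (0.03, -0.26 to 0.32) include 0. *Prrx1* had a ratio of 0.39 (0.29 to 0.48), and the median of the 9 genes was 0.39.

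**Figure D4:**
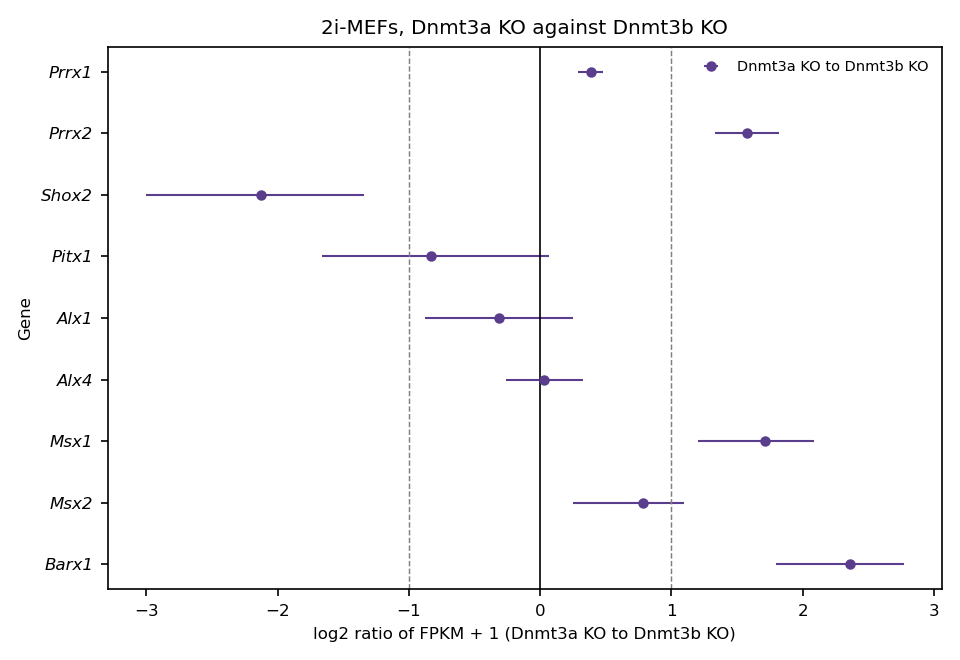
Log2 ratio of FPKM + 1 between *Dnmt3a* KO and *Dnmt3b* KO 2i-MEFs (x axis) for the 9 genes (y axis); points are the ratio of 1 library to 1 library, bars the 95% counting interval, and dashed lines mark 2-fold. *Barx1*, *Msx1* and *Prrx2* lie past the upper line and *Shox2* past the lower line.

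The craniofacial list also leaned to the *Dnmt3a* KO side in 2i-MEFs, with 7 of 22 genes at least 2-fold higher, 0 lower and a median ratio of 0.65. *Dlx6*, which patterns the lower jaw, reached 4.71 FPKM with *Dnmt3a* KO and was listed at 0 with *Dnmt3b* KO. *Six2* was at 9.34 against 1.22 FPKM, and *Lhx8*, a palate and tooth gene, was at 2.78 FPKM and listed at 0. *Dlx1*, *Dlx2*, *Dlx5* and *Foxd1* made up the 7. Of the 26 limb patterning genes, 1 was higher, *Irx3* (17.1 against 6.97 FPKM), and 2 were lower, *Emx2* (9.37 against 29.9 FPKM) and *Tbx3* (2.09 against 6.23 FPKM). Of the BMP genes, the ligand *Bmp4* (82.4 against 33.3 FPKM) and the responder *Id2* (46.9 against 15.8 FPKM) were higher, and the receptor *Bmpr1b* (2.40 against 6.32 FPKM) was lower. The summed cartilage markers were at 38.7 against 3.48 FPKM, with *Matn1* and *Cnmd* at 0 in the *Dnmt3b* KO library. The skeletal muscle markers summed to 14.54 against 26.6 FPKM (3 of 9 at least 2-fold lower and 1 higher), the epithelial markers to 2.59 against 8.63 FPKM (1 of 6 lower) and the foregut and stomach markers to 146 against 286 FPKM (2 of 9 lower and 1 higher). Most of that last sum was the smooth muscle gene *Actg2*, at 114 against 227 FPKM, whereas *Nkx3-2*, a stomach and skeletal factor, was at 4.10 against 0.216 FPKM and *Foxf1*, a gut mesenchyme factor, at 5.12 against 3.30 FPKM. None of the 5 neural crest and Schwann cell markers passed 2-fold, at sums of 6.11 against 11.8 FPKM. The part of these cells in these ratios was not tested, and each genotype is 1 library from chimeric embryos.

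Against the 4 libraries of MEFs from embryos, the 2i-MEFs lay apart for 4 of the 9 genes. *Pitx1*, *Msx2* and *Alx4* were lower in both 2i-MEF libraries than in all 4 MEF libraries, *Prrx1* was higher, and the other 5 overlapped. Of all genes, 7.56% lay below and 8.12% above by this rule, and of genes with 1 FPKM in at least 1 of these libraries, 21% and 24.1%. All 9 members reached 1 FPKM in at least 1 of these libraries, and among such genes a gap was common, so the count does not set the members apart. The lowest MEF level was 2.55 times the highest 2i-MEF level for *Pitx1*, 2.38 times for *Msx2* and 1.61 times for *Alx4*, and the lowest 2i-MEF level of *Prrx1* was 1.13 times the highest MEF level. Against the WT MEF libraries alone, 5 members lay below, *Shox2* and *Barx1* besides the 3 named, and 1 above, compared with 11% and 11.8% of all genes. The shares among genes with 1 FPKM are not given for this comparison. Strain, sex, ES cell origin, selection and sorting all differ between these kinds of fibroblast and cannot be told apart. The summed macrophage markers, 326 to 502 FPKM in the MEFs from embryos, were at 5.93 and 2.97 FPKM in *Dnmt3a* KO and *Dnmt3b* KO 2i-MEFs.

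In heart, 0 of the 9 members differed at least 2-fold between WT and the *Dnmt3a* KO label, against 0.576% of all genes higher and 0.488% lower, and 2.18% and 1.85% of genes with 1 FPKM in either library. However, *Pitx1*, *Alx1*, *Alx4* and *Barx1* were under 1 FPKM in both hearts and could hardly pass the rule. The largest ratios were those of *Pitx1* (0.0703 FPKM in WT and 0.439 FPKM, log2 ratio 0.43) and *Shox2* (2.96 and 3.92 FPKM, log2 ratio 0.31). Their counting intervals, -0.31 to 0.65 and -0.63 to 1.25, include 0. *Shox2* is known from the sinoatrial node, and the 7 markers of that node summed to 49.2 and 43.2 FPKM in the WT and labelled *Dnmt3a* KO hearts, with a median ratio of -0.31. *Hcn4* was at 5.76 and 7.70 FPKM, *Tbx18* at 13.0 and 8.42 FPKM and *Cacna2d2* at 22.8 and 18.2 FPKM. *Tbx3*, also a gene of the limb list, was at 1.62 and 5.24 FPKM. Its ratio was the only one past 2-fold in that list of 26 genes in heart.

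In liver, 0 members passed the rule, against 0.351% of all genes higher and 0.581% lower (1.39% and 2.3% of genes with 1 FPKM in either library). However, 8 of the 9 were under 1 FPKM in both livers and could hardly reach it. *Barx1* came closest, at 1.40 FPKM in WT liver against 3.79 FPKM in its labelled *Dnmt3a* KO counterpart, and its ratio of 0.998 (0.66 to 1.32) from about 44 and 117 reads lay just under the threshold. *Prrx1*, at 0.602 and 0.142 FPKM, and *Prrx2*, at 0.746 and 0.179 FPKM, were both lower with the *Dnmt3a* KO label, and the interval of *Prrx1* (-0.71 to -0.15) did not include 0 whereas that of *Prrx2* (-0.93 to 0.15) did. The summed fibroblast markers were at 1006 and 684 FPKM, and the skeletal muscle markers at 312 and 112 FPKM. Of the 9 muscle markers, 7 were at least 2-fold lower with the *Dnmt3a* KO label and 0 higher, with a median ratio of -2.67. Most of the second muscle sum was *Mylpf*, at 231 and 110 FPKM, whereas *Acta1* was at 28.4 and 0.624 FPKM. The part of these cells in the ratios of the homeobox genes was not tested. Of 9 foregut and stomach markers, *Nkx3-2*, *Sox2*, *Cldn18* and *Pdx1* were listed at 0 in both livers, and the sum of the list was 16.6 and 13.4 FPKM.

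Genes whose pattern over the 10 libraries was most like that of each member were sought among 11504 protein-coding genes that reached 5 FPKM, by Pearson's correlation of log2(FPKM + 1). For *Pitx1* they were *Hoxa11* (0.989), *Supt5* (0.985) and *Tbx4* (0.983), and for *Alx4* they were *Tbx4* (0.983), *Cxcl14* (0.976) and *Osr2* (0.973). For *Prrx1* the closest was *Lox* (0.998), for *Prrx2* *Meis3* (0.996), for *Shox2* *Slc35f6* (0.964), for *Msx1* *Sema6c* (0.923), for *Msx2* *Phkb* (0.979), for *Alx1* *Sim2* (0.982) and for *Barx1* *Rnf121* (0.946). Among the members themselves, *Pitx1* and *Alx4* were the most alike (0.979), and *Msx1* and *Alx1* the least (0.00). These values describe 10 libraries that fall into fibroblasts and tissues, so genes that are low in both heart and liver share that gap with the members. Over the 6 fibroblast libraries, other genes came first for every member, among them *Pop7* for *Pitx1* (0.998) and *Mllt1* for *Alx4* (0.996), and *Pitx1* and *Alx4* had a correlation of 0.948.

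Some members share their locus with other genes. The libraries were made with a stranded kit, but whether strand was used in counting is not stated, so reads in shared stretches cannot be assigned with certainty. *Shox2* overlaps 382 bases of *Rsrc1* on the opposite strand, which was at 12.0 to 25.8 FPKM in the 10 libraries and at 21.8 and 15.5 FPKM in WT MEFs and MEFs labelled *Dnmt3a* KO with DMSO. *Alx4* overlaps 20312 bases of *Ext2* on the opposite strand, which was at 33.2 to 95.2 FPKM. *Alx1* overlaps the noncoding *Gm17028* on the same strand, which was at 2.01 FPKM or less and was listed at 0 in heart and liver and in the 2i-MEFs. The neighbours annotated within *Pitx1* and *Prrx1* were at 0.221 FPKM or less in all 10 libraries.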

How the data were processed

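The 10 RNA-seq libraries used, 1 for each condition, were grouped by their labels. Per the labels and the methods, the authors made stranded mRNA libraries, trimmed the reads and mapped them to mm10 (cutadapt 1.9.1, TopHat2 2.1.0, Bowtie2 2.2.5 and Cufflinks 2.2.1 are listed in the submitters' processing notes, and the methods give other versions of the first 3, so those used for the table are uncertain). The deposited values are FPKM per gene, calculated by the authors with cufflinks, with no read counts and no further scaling stated. They depend on the transcript models used, which matters for members with several transcripts.

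From these, 155 rows with a repeated symbol were summed, and log2 ratios of FPKM + 1 were calculated for 7 comparisons, with 2-fold as threshold and the share of all genes past it as background. Depth was estimated from the low FPKM steps of 6716 genes with 1 transcript of at least 1500 bases, at a fragment length of 196 bases; 96.4% to 98.1% of values under 10 reads were whole within 0.1. Counting intervals are 95% and cover counting error only, since the reads carry no molecular identifiers. No p-value was calculated, and replicate error is unknown. DNA methylation samples were not used here.

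The members, gene lists and comparisons were chosen with earlier results of these data known. The named genes were all 9 members, up to 3 genes with the largest difference in each direction per list and comparison, the 3 genes most like each member, overlapping genes and markers. *Tbx5*, *Isl1*, *Hoxc10*, *Hoxc11*, *Hoxd11*, *Hoxd12*, *Dlx1*, *Dlx2* and *Dlx5* were named after their values were seen. Alternatives were a pseudocount of 0.1, centring, rescaling to equal sums, a filter at 1 FPKM, a 1.5-fold threshold, a 2-fold gap between groups, Spearman's correlation and, added after seeing the data, leaving out libraries whose *Dnmt3a* level went against the label. Depth estimation and the 2-fold rule were tested on simulated data. Calculations ran in Python 3.11.15 with scipy 1.17.1, pandas 2.3.3 and numpy 2.4.6.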

Additional observations from a re-analysis of the deposited data

Results flagged for a closer look

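The ratios of *Barx1* between the libraries labelled *Dnmt3a* KO and WT had opposite signs in MEFs with DMSO and in liver. Its log2 ratio of FPKM + 1 was -0.66 in MEFs with DMSO, at 5.28 against 8.91 FPKM, and 0.998 in liver, at 3.79 against 1.40 FPKM. Both were under 2-fold on this scale, while the liver FPKM values themselves differed 2.71-fold. With GSK126, the ratio in MEFs was -0.17 and its counting interval, -0.43 to 0.10, included 0, so the sign in MEFs rests on the DMSO pair. The difference between the ratios was not tested, since each condition has 1 library.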

How the results depend on the processing

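With a 1.5-fold threshold, 4 members were lower in MEFs labelled *Dnmt3a* KO with GSK126, 1 was higher and 1 lower with GSK126 in WT MEFs, 2 were lower in 2i-MEFs and 1 was higher in liver. With a pseudocount of 0.1, 2 were lower in 2i-MEFs, 1 was higher in heart, and in liver 1 was higher and 4 were lower. In liver, members other than *Barx1* were under 1 FPKM in both libraries. Centred ratios gave 1 higher member in liver and a median log2 ratio of 0.0358, and a filter at 1 FPKM, which leaves *Barx1* alone there, a median of 0.998. With a gap of at least 2-fold in FPKM + 1 between groups, 2 members lay above in fibroblasts, and 0 above and 1 below in 2i-MEFs against MEFs from embryos. Without the libraries whose *Dnmt3a* level went against the label, 5 lay below by any gap in that last comparison. Shares of all genes with the other thresholds, the other pseudocount and the 2-fold gap are not given here, so those counts cannot be set against a background. The other 98 checks of the members' counts and medians kept the counts within 1.5-fold and the medians within the order-statistic range of the 9 ratios, among them every alternative for the comparison with DMSO and rescaling to equal sums, and no difference of at least 2-fold changed direction. The liver median, which is -0.04 as deposited, changed sign when centred. Among single genes, 37 values moved and 219 did not. With Spearman's correlation over the 10 libraries, 1 of the 3 genes most like *Shox2* and *Msx1* remained and 0 for the other members. Over the 6 fibroblast libraries, up to 90 genes tied for the first place, so this comparison says nothing. No replicate could be left out, because each condition has 1 library. No paired analysis was possible because the embryo numbers shared by heart and liver do not recur between WT and *Dnmt3a* KO, and no test was made. Below 1 FPKM, depth limits most values: in liver, most members other than *Barx1* rest on few reads. *Prrx1* in WT liver rests on about 18 to 100 reads, depending on the transcript.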
